A study of Mus musculus with 15 samples.

Results

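Protein phosphatase 2A (PP2A) is a serine/threonine phosphatase that reverses a large share of the phosphorylation laid down by cell cycle and growth kinases. Its core dimer joins a catalytic C subunit to a scaffolding A subunit, and a regulatory B subunit of the B55, B56, PR72 or striatin family completes the holoenzyme and directs it to its substrates. Free catalytic subunit is held by chaperone-like partners, and small acidic proteins and cell cycle inhibitors restrain the assembled enzyme. In dividing stem cells the B55 and B56 holoenzymes are best known for mitotic entry and exit and for chromosome cohesion.

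The 10 transcripts described here encode the catalytic subunits Ppp2ca and Ppp2cb, the scaffolds Ppp2r1a and Ppp2r1b, the B55 subunit Ppp2r2a, the B56 subunits Ppp2r5a, Ppp2r5c, Ppp2r5d and Ppp2r5e, and Tiprl, a regulator that binds the catalytic subunits of PP2A-like phosphatases. They were chosen by gene name among 21727 transcripts in the deposited count table, and values of these same libraries entered the choice: Ppp2r5a and Tiprl were picked because they differed between the immunoprecipitated (IP) fractions, and Ppp2r5d because it differed between total fractions. Each gene matched 1 transcript, and each of the 10 was among the 10085 transcripts that passed the filter on low counts (over 2 CPM, counts scaled to a common library total, in at least 14 of 15 libraries).

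Ribosome-protected fragments were sequenced from mouse embryonic stem cells of the line E14Tg2a.4, grown in serum with leukemia inhibitory factor. The question was whether ribosomes carrying the small-subunit protein Rps27 (eS27) or its paralog Rps27l (eS27L) translate different mRNAs, as read from the footprints that co-purify with each tagged protein. The Rps27-FLAG and Rps27l-FLAG lines carried a homozygous C-terminal 3xFLAG tag at the endogenous Rps27 or Rps27l gene, introduced by CRISPR, and the wild-type (WT) line was untagged. Each line was represented by 3 independently picked clones. Fragments of the same replicate number were pooled after barcoding and carried through the rest of library preparation together. Replicate number and library preparation pool can therefore not be told apart. Total fragments were sequenced from all 9 clones and anti-FLAG IP fragments from the 6 tagged clones, after cycloheximide treatment, nuclease digestion and pelleting of ribosomes. An IP of untagged cells was not analysed here, so fragments that stuck to the beads without a tag have no measured level. The libraries held 3972152 to 8064166 counted fragments, with 3972152 to 6673935 in the IP libraries and 6313827 to 8064166 in the total libraries. Each of the 9 pluripotency markers (Pou5f1, Nanog, Zfp42 and others) was read in every library at 77.4 CPM or more, and none of the 19 markers of endoderm, mesoderm, neural, fibroblast or blood cells exceeded 31.4 CPM. Whole cultures were lysed and no matched RNA libraries were used, so a change in the share of cells, in mRNA level and in ribosomes per mRNA cannot be told apart in any value below.

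The catalytic subunits are close paralogs, so the first question was whether a footprint can be assigned to either of them. The coding sequences (CDS) of Ppp2ca (transcript ENSMUST00000020608 at chr11:52098681-52127778, plus strand, GRCm38) and Ppp2cb (ENSMUST00000009774 at chr8:33599625-33619441, plus strand) were both 927 nt long over 7 coding exons and differed at 170 bases, of which 143 were at the third codon position. Of 900 windows of 28 nt, a typical footprint length, none was identical in the pair, each held more than 1 difference, and the median was 5 differences. Sequences were read from the GENCODE M21 transcripts (GRCm38). The most divergent window, bases 66 to 93 of each CDS in exon 1 (chr11:52099114-52099141 and chr8:33599982-33600009), is shown with the 12 differing bases in capitals.
Ppp2ca: gctCTCcgagTCccaGgtCAAgaGCctC
Ppp2cb: gctGAAcgagAAccaAgtGCGgaCGctG
The longest run without a difference was 25 nt, at bases 15 to 39 (chr11:52099063-52099087 and chr8:33599931-33599955), shorter than a footprint.
Ppp2ca: gttcaccaaggagctggaccagtgg
Ppp2cb: gttcaccaaggagctggaccagtgg

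Among the CDS of all transcripts in the table, the single member that shared windows with another transcript was Ppp2r5d, with 2 of 1755 windows (0.114%) also present in the B56 transcript Ppp2r5b. That shared run of 29 nt lay in exon 9 of both genes (chr17:46686073-46686101 and chr19:6230521-6230549, both minus strand).
Ppp2r5d: tactgtgtggtgcagttcctggagaagga
Ppp2r5b: tactgtgtggtgcagttcctggagaagga

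Copies outside the table were more frequent for Ppp2r5a and Ppp2r2a. In GENCODE M21, 727 of the 1431 windows of Ppp2r5a (50.8%) also occurred in 5 processed pseudogenes (Gm12101, Gm13142, Gm13169, Gm13233 and Gm13244), and 499 of the 1314 windows of Ppp2r2a (38.0%) in 2 (Gm19219 and Gm19221). The share was 4.77% for Ppp2r1a, 2.42% for Tiprl and 0.0514% for Ppp2r1b, and no window of Ppp2ca, Ppp2cb, Ppp2r5c or Ppp2r5e was found in another gene. The study aligned fragments to canonical transcripts, and these pseudogenes have no row in the table, so a fragment from such a copy could have been counted under its parent gene. How many counts came from such copies was not tested.

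Expressed per kilobase of counted CDS, which allows levels of different genes to be compared, PP2A transcripts lay in the upper part of the range in untagged cells. Ppp2ca had the highest footprint density of the 10 in WT total libraries, at 404 ± 15.5 CPM per kb (SD, n = 3), ranking 380 from the top of the tested transcripts. Ppp2r1a followed at 285 ± 3.97 and Ppp2r2a at 180 ± 4.51. The lowest member, Ppp2r5e, had a density of 40.9 ± 5.89, which was still above the median of 25.5 over all tested transcripts. Between these lay Ppp2cb at 99.0 ± 4.92, Tiprl at 79.5 ± 5.78, Ppp2r1b at 71.3 ± 2.44, Ppp2r5a at 63.5 ± 26.3, Ppp2r5d at 62.6 ± 5.53 and Ppp2r5c at 56.9 ± 2.81. Neighbours in this order had ranges over the 3 clones that did not overlap, except that the ranges of Ppp2r1b and Ppp2r5a, of Ppp2r5a and Ppp2r5d, and of Ppp2r5d and Ppp2r5c overlapped. The value of Ppp2r5c rests on a transcript (ENSMUST00000220509) whose annotated CDS of 849 nt is incomplete, so it covers part of the coding sequence.

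The main isoform of each core subunit kept about the same share of footprints. Ppp2ca made up 80.3% ± 0.398 of the summed catalytic density in WT total libraries and 78.4% to 82.7% over the 15 libraries. In Rps27-FLAG cells the Ppp2ca share was 80.2% to 82.7% in the IP and 78.4% to 79.7% in the total libraries. In Rps27l-FLAG cells it was 81.21% to 81.65% in the IP and 79.66% to 81.19% in the total libraries. The IP and total ranges did not overlap in either line. Ppp2r1a made up 80.0% ± 0.346 of the summed scaffold density in WT total libraries and 78.5% to 82.0% over the 15 libraries. The ratio of summed scaffold to summed catalytic density was 0.710 ± 0.0181 in WT total libraries (n = 3) and spanned 0.672 to 0.748 over all libraries, with IP and total values overlapping.

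The normalised footprint counts of the 10 members in the 15 libraries are plotted for each gene.

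**Figure D1:**
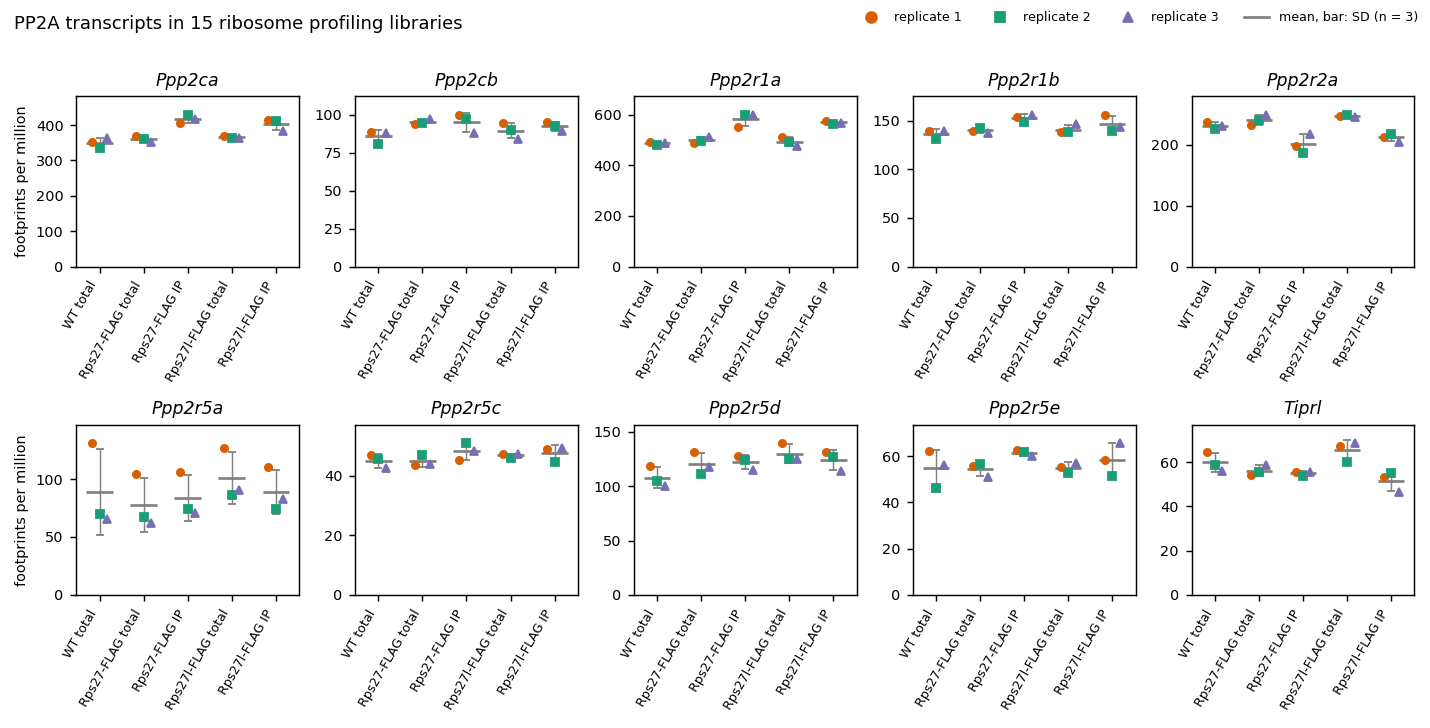
Normalised footprint counts in CPM (y axis, from 0, a separate scale for each gene) for the 10 PP2A transcripts in the 5 conditions (x axis), with 1 point per library coloured by replicate number, and the mean and SD of 3 clones in grey. Ppp2ca and Ppp2r1a sit higher and Ppp2r2a lower in the IP than in the total libraries of both tagged lines, and the replicate 1 library of Ppp2r5a is the highest in each condition.

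The comparison of IP with total fragments within a tagged line asks which mRNAs were over- or under-represented on the tagged ribosomes. For 8 of the members this comparison did not itself enter the choice of genes, and it is tested for those. Among the 8, Ppp2r5d was chosen on total libraries, which this comparison also uses. Its values here are therefore not independent of the choice. The first fit had no replicate term. In it none of the 10 members passed an adjusted p of 0.05 in either line (edgeR's quasi-likelihood test, Benjamini-Hochberg over 10085 transcripts), where 5.67% of all tested transcripts passed in Rps27-FLAG and 3.1% in Rps27l-FLAG cells. An unadjusted p under 0.05 was reached by 3 of the 8, Ppp2ca, Ppp2r1a and Ppp2r2a, in both lines, where 2230 of 10085 tested transcripts reached it in Rps27-FLAG and 1752 in Rps27l-FLAG cells. DESeq2 in the same design called Ppp2ca and Ppp2r1a in Rps27-FLAG and Ppp2r1a in Rps27l-FLAG cells. It used its own size factors, set over IP and total libraries together, where edgeR scaled each fraction separately. Its median log2 fold change over all tested transcripts was 0.0144 and 0.0027 in these lines, beside -0.0104 and -0.0307 by edgeR. Over all tested transcripts DESeq2 called 95 higher and 489 lower in the first line and 197 higher and 263 lower in the second. The p-values rest on the spread between independently picked clones, with edgeR sharing the estimate of spread over all tested transcripts. The IP and total library of 1 replicate came from the same clone. The fit without a replicate term leaves this pairing out, and the fit with the term compares the fractions within each clone. In the fit with the term the spread came mostly from all transcripts together. A very small adjusted p there does not measure the 3 clones of 1 gene alone. In that fit 4 of the 8 members were higher and 1 lower in the IP of Rps27-FLAG cells, against 18.3% of all tested transcripts that were higher and 22.9% that were lower. In Rps27l-FLAG cells 2 of the 8 were higher and 1 lower, against 12% and 19% of all tested transcripts.

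Ppp2ca, which encodes the main catalytic subunit, was higher in the IP of every tagged clone. In Rps27-FLAG total libraries it had 370, 360 and 353 normalised CPM in replicates 1, 2 and 3, and in the IP libraries 406, 430 and 418. In Rps27l-FLAG cells the total values were 370, 362 and 363 and the IP values 413, 412 and 384. IP and total values did not overlap in either line. The log2 fold change in the fit with the replicate term was 0.21 ± 0.0308 (SE) in Rps27-FLAG cells (adjusted p = 2.38e-10 by edgeR, against 0.0682 without the term) and 0.15 ± 0.0301 in Rps27l-FLAG cells (adjusted p = 8.12e-05, against 0.191 without the term). Over the settings tried, the adjusted p by edgeR, limma or DESeq2 ran from 2.56e-11 to 0.57 in the first line and from 8.12e-05 to 0.747 in the second, and the log2 fold change from 0.16 to 0.24 and from 0.13 to 0.18.

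Ppp2cb, the minor catalytic subunit, did not pass in either line. Its log2 IP-over-total ratios in the 3 Rps27-FLAG clones were 0.09, 0.033 and -0.14, and in the Rps27l-FLAG clones 0.011, 0.04 and 0.081. The fitted log2 fold change with the replicate term had a 95% interval of -0.085 to 0.10 in Rps27-FLAG and -0.061 to 0.14 in Rps27l-FLAG cells.

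Ppp2r1a, the main scaffold (ENSMUST00000007708 at chr17:20945311-20965916, plus strand, 15 coding exons), was likewise higher in the IP of every tagged clone. Its total libraries had 490, 496 and 514 CPM in Rps27-FLAG replicates 1, 2 and 3 and its IP libraries 551, 601 and 599. In Rps27l-FLAG cells the total values were 513, 493 and 477 and the IP values 576, 565 and 569. The lowest IP value was above the highest total value in both lines. The log2 fold change with the replicate term was 0.22 ± 0.0301 (edgeR adjusted p = 2.64e-12, against 0.0735 without the term) in Rps27-FLAG and 0.20 ± 0.0285 (adjusted p = 2.53e-08, against 0.0598) in Rps27l-FLAG cells. Over the settings tried the adjusted p ran from 4.6e-20 to 0.581 and from 7.87e-12 to 0.524.

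The second scaffold, Ppp2r1b (ENSMUST00000034560 at chr9:50856924-50894229, plus strand), was 1.09-fold higher in the IP of Rps27-FLAG cells with the replicate term (log2 0.12 ± 0.0391, edgeR adjusted p = 0.00507, against 0.23 without the term), with ratios above 0 in 3 of 3 clones. The call was lost without replicate 1 (adjusted p = 0.0837 by edgeR) and without replicate 3 (0.0721), and over the settings tried the adjusted p ran from 1.89e-07 to 0.67. In Rps27l-FLAG cells the clone ratios were 0.18, 0.015 and -0.031 on the log2 scale, and Ppp2r1b did not pass (adjusted p = 0.259).

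Ppp2r2a encodes the B55 alpha subunit (ENSMUST00000089230 at chr14:67014056-67072444, minus strand, 10 coding exons). It moved opposite to Ppp2ca and Ppp2r1a. Its total libraries in Rps27-FLAG cells had 233, 241 and 249 CPM, and its IP libraries 198, 187 and 219. In Rps27l-FLAG cells the total values were 247, 250 and 247 and the IP values 214, 218 and 205. All 6 IP values were below all 6 total values of the tagged lines. The log2 fold change with the replicate term was -0.26 ± 0.0344 (edgeR adjusted p = 2.95e-13, against 0.0818 without it) in Rps27-FLAG and -0.22 ± 0.0341 (adjusted p = 2.53e-07, against 0.069) in Rps27l-FLAG cells. Over the settings tried the adjusted p ran from 2.95e-13 to 0.581 and from 2.53e-07 to 0.553. As given above, 38.0% of its windows also occur in processed pseudogenes.

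Of the B56 subunits that did not enter the choice through the IP libraries, Ppp2r5e (ENSMUST00000021447 at chr12:75450881-75596200, minus strand) was higher in the IP of Rps27-FLAG cells with the replicate term (log2 0.17 ± 0.0607, edgeR adjusted p = 0.0175, against 0.229 without the term). Its clone ratios there were 0.17, 0.12 and 0.24. The call was lost without replicate 1 (adjusted p = 0.101 by edgeR) and without replicate 3 (0.0967), and over the settings tried the adjusted p ran from 0.00391 to 0.63. In Rps27l-FLAG cells its ratios were 0.071, -0.037 and 0.20, and it did not pass (adjusted p = 0.403). Ppp2r5c (chr12:110447252-110551110, plus strand) and Ppp2r5d (ENSMUST00000002839 at chr17:46682991-46705002, minus strand) did not pass in either line, with 95% intervals of -0.038 to 0.23 and -0.064 to 0.10 in Rps27-FLAG and of -0.12 to 0.16 and -0.15 to 0.023 in Rps27l-FLAG cells.

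The ratios of the individual clones are plotted beside the fitted values.

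**Figure D2:**
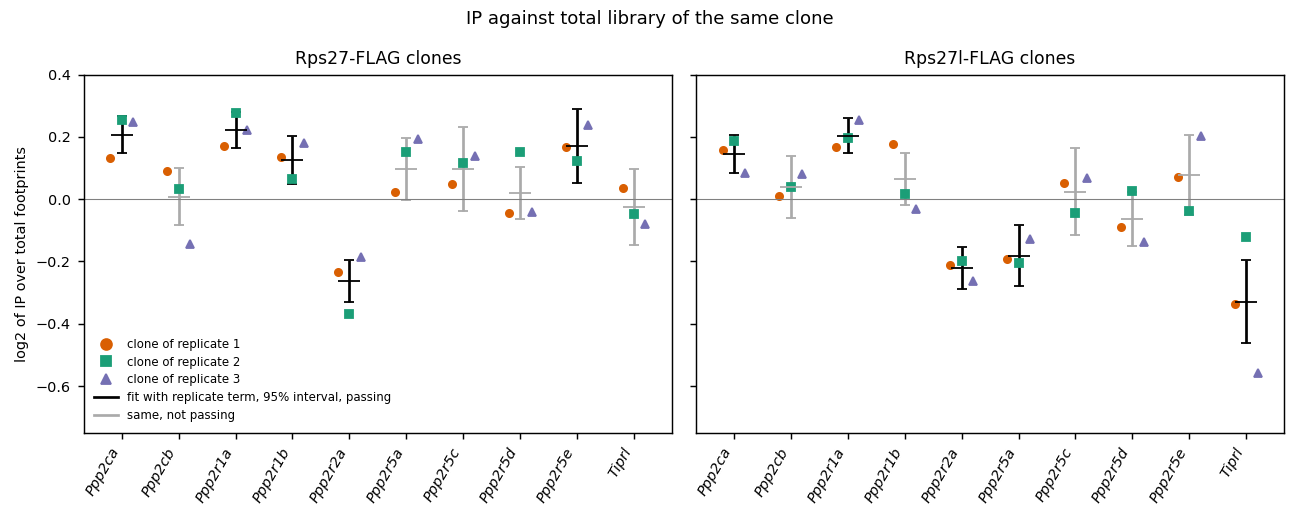
The log2 ratio of normalised IP to total footprints (y axis) for the 10 PP2A transcripts (x axis) in Rps27-FLAG clones (left) and Rps27l-FLAG clones (right), with 1 coloured point per clone and the fitted value with its 95% interval from the fit with a replicate term in black where the adjusted p was under 0.05 and in grey otherwise. Ppp2ca and Ppp2r1a lie above 0 and Ppp2r2a below 0 in all 6 clones, and Ppp2r5a lies above 0 in the 3 Rps27-FLAG clones and below 0 in the 3 Rps27l-FLAG clones.

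Footprints were then summed by subunit role within each library. Summed catalytic density (Ppp2ca and Ppp2cb) was 526 ± 8.46 CPM per kb in total and 592 ± 13.8 in IP libraries of Rps27-FLAG cells, and 525 ± 10.4 and 572 ± 22.3 in Rps27l-FLAG cells (SD, n = 3 each). Summed scaffold density (Ppp2r1a and Ppp2r1b) was 366 ± 6.6 in total and 422 ± 16.1 in IP libraries of Rps27-FLAG cells, and 363 ± 8.63 and 410 ± 7.93 in Rps27l-FLAG cells. Summed density of the tested B55 subunits (Ppp2r2a and Ppp2r2d) went the other way, from 293 ± 12.6 to 245 ± 11.3 in Rps27-FLAG and from 293 ± 5.62 to 249 ± 2.59 in Rps27l-FLAG cells. The 4 B56 members together had 223 ± 22.0 and 238 ± 15.5 in Rps27-FLAG and 248 ± 21.9 and 240 ± 19.8 in Rps27l-FLAG cells, with overlapping ranges.

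The ratio of the 8 tested B subunits (Ppp2r2a, Ppp2r2d, Ppp2r3c, Ppp2r5a, Ppp2r5b, Ppp2r5c, Ppp2r5d and Ppp2r5e) to the catalytic pair was lower in the IP. It was 1.05 to 1.07 in the total libraries and 0.847 to 0.910 in the IP libraries of Rps27-FLAG cells, and 1.06 to 1.13 and 0.865 to 0.968 in Rps27l-FLAG cells. Untagged cells had 1.03 to 1.16. The IP values of both lines lay below all total values, including those of untagged cells. These sums were formed after the single genes had been seen, so they are given without a test. They include Ppp2r5a, which was chosen on its IP values. They were not corrected for CDS length, which was 927 nt for each catalytic subunit and 1341 nt for Ppp2r2a. Whether length bears on the ratio was not tested.

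**Figure D3:**
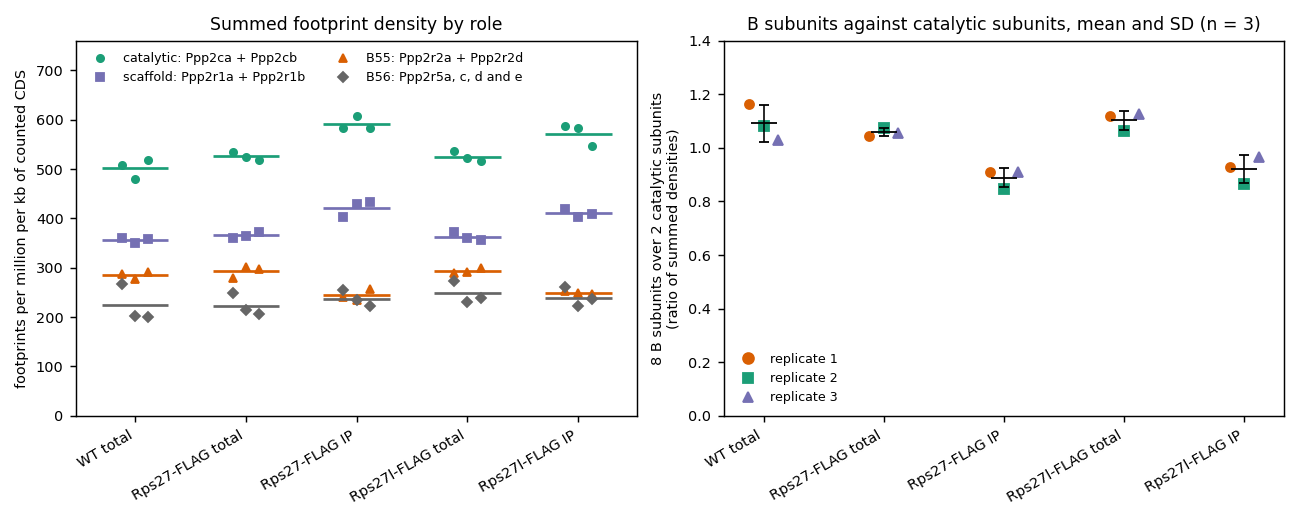
Left, summed footprint density (CPM per kb of counted CDS, y axis from 0) of the catalytic, scaffold, B55 and B56 subunits in the 5 conditions, with 1 point per library and a line at the mean. Right, the ratio of 8 summed B subunits to the 2 catalytic subunits, with mean and SD of 3 libraries, which is 0.847 to 0.968 in the IP libraries and 1.03 to 1.16 in the total libraries.

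IP-over-total ratios fell with CDS length over all transcripts. Spearman's rho between the log2 fold change and CDS length was -0.562 in Rps27-FLAG and -0.527 in Rps27l-FLAG cells, across 10082 transcripts that share the same libraries. Members were therefore set beside transcripts within 100 nt of their own CDS length. For Ppp2r1a, with a CDS of 1767 nt, the median log2 fold change of 624 such transcripts was -0.055 in both lines, and 94.4% and 95.5% of them were below Ppp2r1a. For Ppp2ca the median of 956 such transcripts was 0.062 and 0.041, with 84.8% and 77.7% below it. For Ppp2r2a, with a CDS of 1341 nt, the median of 889 was -0.028 and -0.042, with 13.2% and 17.4% below it.

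With the length trend removed from each library and the replicate term kept, Ppp2ca, Ppp2r1a and Ppp2r2a remained past the threshold in both lines. Ppp2r1a then had log2 fold changes of 0.30 ± 0.0311 and 0.28 ± 0.0296 (edgeR adjusted p = 4.6e-20 and 7.87e-12), Ppp2ca 0.16 ± 0.0314 and 0.13 ± 0.0307 (adjusted p = 1.89e-06 and 0.00092) and Ppp2r2a -0.23 ± 0.0344 and -0.18 ± 0.0344 (adjusted p = 1.98e-10 and 2.81e-05). Ppp2r1b passed in both lines in this fit, at 0.22 ± 0.039 and 0.16 ± 0.0417. Of 10085 tested transcripts it called 1854 higher and 1308 lower in Rps27-FLAG, and 1479 and 812 in Rps27l-FLAG cells. With the length trend removed and no replicate term, no member passed in either line. The edgeR adjusted p was then 0.269 and 0.403 for Ppp2ca, 0.133 and 0.0804 for Ppp2r1a, and 0.254 and 0.219 for Ppp2r2a.

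**Figure D4:**
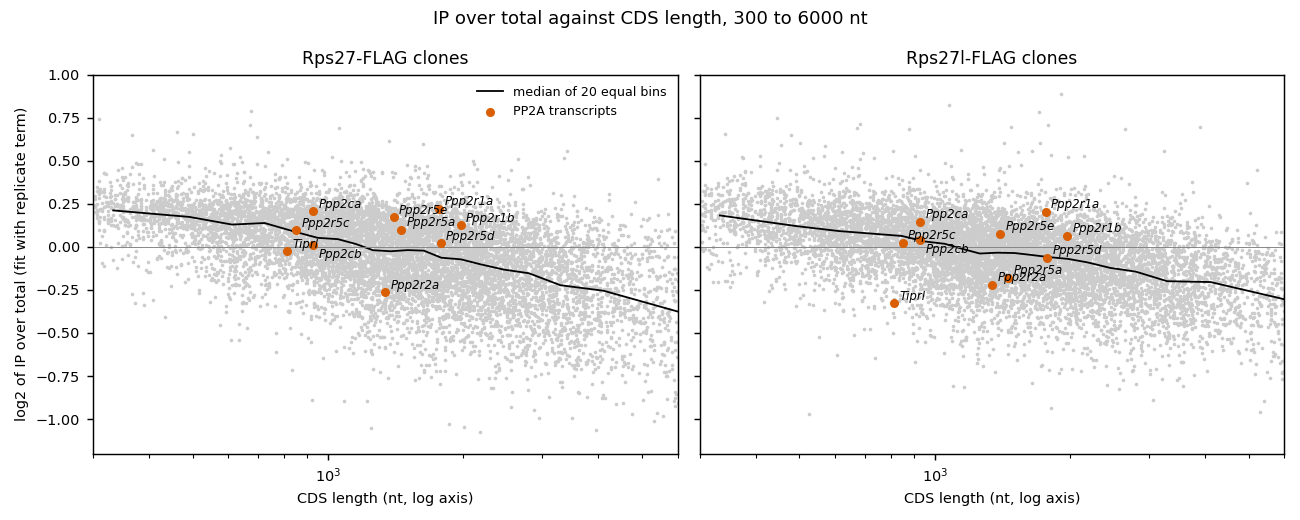
The log2 fold change of IP over total in the fit with a replicate term (y axis) against CDS length (x axis, nt, log scale) in Rps27-FLAG (left) and Rps27l-FLAG clones (right), with the 9597 of 10085 tested transcripts that fall within the axes in grey, the median of 20 equally filled length bins as a line, and the 10 PP2A transcripts labelled. Ppp2r1a lies above and Ppp2r2a below the line in both panels, and Tiprl lies far below it in Rps27l-FLAG clones.

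Ppp2r5a encodes the B56 alpha subunit (ENSMUST00000067976 at chr1:191351975-191397041, minus strand, 13 coding exons). It and Tiprl were chosen because their IP-over-total ratios differed between the tagged lines, so the following values describe that choice and are not tested again. In Rps27-FLAG cells Ppp2r5a had 104, 67.1 and 61.7 CPM in total libraries 1, 2 and 3 and 106, 74.5 and 70.4 in the IP libraries. In Rps27l-FLAG cells it had 127, 86.0 and 90.3 in total and 111, 74.4 and 82.5 in IP libraries. The clone ratios on the log2 scale were 0.024, 0.15 and 0.19 in Rps27-FLAG and -0.19, -0.21 and -0.13 in Rps27l-FLAG clones, which do not overlap. The fitted difference between the lines, Rps27l-ribosome over Rps27-ribosome preference, was -0.28 ± 0.0709 on the log2 scale, and within replicates 1, 2 and 3 it was -0.22, -0.36 and -0.32.

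Tiprl (ENSMUST00000043235 at chr1:165212286-165236943, minus strand, 7 coding exons) had 54.3, 55.4 and 58.7 CPM in total libraries and 55.6, 53.7 and 55.5 in IP libraries of Rps27-FLAG cells. In Rps27l-FLAG cells it had 67.3, 59.8 and 68.6 in total and 53.3, 54.9 and 46.5 in IP libraries. Its clone ratios were 0.034, -0.046 and -0.081 in the first line and -0.34, -0.12 and -0.56 in the second. The fitted preference was -0.30 ± 0.0911, with -0.37, -0.077 and -0.48 within replicates 1, 2 and 3.

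The limits behind the choice are given as a description and support nothing about these genes. A transcript was called when the adjusted p was under 0.05 and the absolute log2 preference over 0.25, which 0.565% of tested transcripts met, and Ppp2r5a was the member within them. Ppp2r5a lay just inside these limits at an adjusted p of 0.0158 (edgeR) and Tiprl just outside at 0.0643. Without single clones the adjusted p of Ppp2r5a by edgeR rose to 0.0709 (without Rps27-FLAG replicate 2), 0.101 (without Rps27-FLAG replicate 3), 0.11 (without Rps27l-FLAG replicate 1) and 0.0623 (without Rps27l-FLAG replicate 2), and over the settings tried it ran from 0.0149 to 1. Tiprl reached 0.0143 without Rps27l-FLAG replicate 2 and ran from 0.0143 to 1. The other 8 members had log2 preferences between -0.093 and 0.043, and the median over the 10 was -0.067 beside -0.003 over all tested transcripts.

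In these ratios the means of the tagged lines lay further apart in the total than in the IP libraries. For Tiprl the total libraries of Rps27l-FLAG cells were at 65.2 ± 4.74 CPM, above the 56.1 ± 2.31 of Rps27-FLAG and 59.9 ± 4.35 of WT cells, while the IP libraries were at 51.6 ± 4.44 and 54.9 ± 1.09. For Ppp2r5a the total means were 101 ± 22.3 in Rps27l-FLAG, 77.7 ± 23.2 in Rps27-FLAG and 88.8 ± 36.7 in WT cells, and the IP means 89.2 ± 19.0 in Rps27l-FLAG and 83.7 ± 19.5 in Rps27-FLAG cells. The Tiprl ranges of the tagged lines overlapped in the IP and not in the total libraries, and those of Ppp2r5a overlapped in both.

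Ppp2r5a also varied with replicate number more than any other member. The replicate 1 library was the highest in 5 of 5 conditions, on average 0.64 above the mean of replicates 2 and 3 on the log2 scale, with a range of 0.50 to 0.95 over conditions. In untagged cells it had 131 CPM in replicate 1 against 69.9 and 65.4 in replicates 2 and 3. A difference of this size in either direction was found for 372 of the tested transcripts (3.69%). Ppp2r5d was also highest in replicate 1 in 5 of 5 conditions, by 0.16 on average, and the other 8 members differed by 0.078 or less on average. As given above, 50.8% of the Ppp2r5a windows also occur in processed pseudogenes, and whether these copies bear on the variation was not tested.

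The comparisons of total fractions ask whether tagging either paralog went with different footprint levels. Ppp2r5d entered the choice through them, so its values are a description. It had 119, 104 and 100 CPM in WT replicates 1, 2 and 3, then 132, 112 and 118 in Rps27-FLAG and 140, 125 and 125 in Rps27l-FLAG total libraries. Every Rps27l-FLAG value was above every WT value, and within replicates 1, 2 and 3 the log2 difference between these lines was 0.24, 0.26 and 0.32. The fitted log2 fold change of Rps27l-FLAG over WT was 0.27 ± 0.0597 with a replicate term, and that of Rps27-FLAG over WT was 0.16 ± 0.0601.

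Without a replicate term no transcript passed in any of the 3 comparisons of totals by edgeR or DESeq2. At an unadjusted p under 0.05 the edgeR fit held 294 transcripts in Rps27-FLAG over WT (0 members), 574 in Rps27l-FLAG over WT (1 member) and 580 in Rps27l-FLAG over Rps27-FLAG (1 member). With it, 1.43% of tested transcripts passed in Rps27l-FLAG over WT, with Ppp2r5d as the single member, 1.36% passed in Rps27l-FLAG over Rps27-FLAG, with Ppp2r5a as the single member (log2 fold change 0.39 ± 0.0883, and 0.28, 0.36 and 0.55 within replicates 1, 2 and 3), and 0.00992% passed in Rps27-FLAG over WT, with no member. Ppp2r5a was chosen on an IP-over-total difference between the tagged lines, which contains these total libraries. Its value here is therefore also a description. Neither member call was made in any setting without the replicate term, and leaving out single libraries was run without it. These comparisons share libraries with each other and with the IP-over-total comparisons. The ranges of the main core subunits overlapped between the totals. Ppp2ca had 336 to 362 CPM in WT, 353 to 370 in Rps27-FLAG and 362 to 370 in Rps27l-FLAG cells. Its highest WT value was 362.39 and its lowest Rps27l-FLAG value 362.38, so these ranges barely met. Ppp2r1a had 479 to 492, 490 to 514 and 477 to 513 in the same order.

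Of 29 other PP2A genes, listed by role, 24 were tested. In the fit without a replicate term Sgo2a (log2 -0.99 ± 0.104), a shugoshin that recruits B56 PP2A to centromeres, and Mastl (-0.39 ± 0.0659), the kinase that turns Arpp19 and Ensa into B55 inhibitors, were lower in the IP of Rps27-FLAG cells by edgeR, and no listed gene was higher. In Rps27l-FLAG cells 1 passed, again Sgo2a (-0.76 ± 0.116). Of all 10085 tested transcripts, 33 were higher and 539 lower without the term in Rps27-FLAG, and 84 and 229 in Rps27l-FLAG cells. With the replicate term 15 of the 24 passed in Rps27-FLAG cells (8 higher, 7 lower in the IP) and 11 in Rps27l-FLAG cells (4 higher, 7 lower). Over all tested transcripts 18.3% were higher and 22.9% lower in that fit in Rps27-FLAG, and 12% and 19% in Rps27l-FLAG cells. The median log2 fold change of the 24 was 0.072 in Rps27-FLAG and 0.024 in Rps27l-FLAG cells, beside -0.012 and -0.03 over all tested transcripts.

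Inhibitors of PP2A passed in both directions in that fit. Set, an inhibitor with the highest footprint density on the list, was higher in the IP (0.25 ± 0.0304 in Rps27-FLAG and 0.29 ± 0.0277 in Rps27l-FLAG cells), as were the acidic proteins Anp32a (0.21 ± 0.0304 and 0.24 ± 0.03) and Anp32e (0.19 ± 0.0321 and 0.23 ± 0.0324) and the B55 inhibitor Arpp19 (0.24 ± 0.0496 and 0.16 ± 0.0521). Mastl was lower in both lines (-0.40 ± 0.0532 and -0.34 ± 0.0556), as was Ppp2r2d, the second expressed B55 subunit (-0.25 ± 0.0422 and -0.25 ± 0.0449). The listed genes that were higher had CDS of 336 to 1158 nt and those that were lower 1359 to 3492 nt. No gene of this list passed in the preference or in any comparison of totals, in the fits with a replicate or clone term.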

How the data were processed

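The deposited table gives counts of ribosome A sites per transcript, not normalised. Per the study's methods and the submitters' processing notes, the authors trimmed reads with cutadapt 2.4, removed PCR duplicates with UMI-tools 1.0.1, aligned to GRCm38/mm10 canonical transcripts with Bowtie2 2.3.4.3, kept unique alignments and counted CDS positions without the first 15 and last 5 codons, which removes a larger part of a short CDS. Transcripts were named through GENCODE M21 (GRCm38), which held 21723 of the 21727. The 13 mitochondrially encoded transcripts were left out.

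Counts were scaled by TMM within each fraction and tested with edgeR 4.0.16 (quasi-likelihood, R 4.3.3) over 10085 transcripts. Totals were fitted by line, IP and total by fraction, and the preference with a term for each clone (Tmod3 left out of its calls). Log2 ratios of single libraries used 0.5 added counts. Deviations from the condition means correlated between the IP and total libraries of each clone (r = 0.468 to 0.79, 6 clones), which share cells, so the replicate number pairs them. For other pairs with the same number r ran from -0.164 to 0.713. Replicates were separate clones, and no pair of replicate libraries agreed within counting noise. Alternatives used limma 3.58.1 (voom), DESeq2 1.42.0, other scaling, filters, a CDS length correction and leaving out each clone. The scripts were tested on simulated counts. Named genes were the 10 members and, from the lists of other PP2A genes and of PP4 and PP6 genes, those past the threshold, up to 8 per comparison by adjusted p, with the values of 1 listed gene not reported here. The members and lists were chosen with earlier results of these data known.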

Additional observations from a re-analysis of the deposited data

Results flagged for a closer look

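The IP-over-total ratio of Ppp2r5a lay in opposite directions in the tagged lines: the Rps27l-ribosome over Rps27-ribosome preference was -0.28 ± 0.0709 on the log2 scale (edgeR, adjusted p = 0.0158), with all 3 Rps27l-FLAG clones below and all 3 Rps27-FLAG clones above 0. This is one of the values by which the genes were chosen, so its adjusted p describes the choice and is not a test of it. Groups of 3 libraries were not searched for outlying samples.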

How the results depend on the processing

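The count of PP2A transcripts past the threshold depended most on the replicate block. With edgeR, 0 of the 10 members passed in either IP-over-total comparison without it, against 5 in each line with the replicate block and 6 in each with the replicate block and the length trend removed. These counts include Ppp2r5a and Tiprl, which were chosen on their IP values: with the replicate block both are among the 5 in Rps27l-FLAG and neither in Rps27-FLAG cells. DESeq2, with its own size factors and without the block, gave 2 in Rps27-FLAG and 1 in Rps27l-FLAG cells. TMM over all 15 libraries gave 1 in Rps27l-FLAG cells. Leaving out 1 clone gave 0 to 3 without and 3 to 5 with the block in Rps27-FLAG cells, where Ppp2ca, Ppp2r1a and Ppp2r2a passed once replicate 1 was left out, and 0 without and 4 to 5 with the block in Rps27l-FLAG cells. For the preference, 1 member passed in the clone fit, 0 passed without a replicate block, 0 to 1 with a clone left out, and DESeq2 gave Ppp2r5a no adjusted p. The comparisons of totals gave 0 members without the block, also with any library left out. With the replicate block they gave 1 in Rps27l-FLAG over WT (Ppp2r5d) and 1 over Rps27-FLAG (Ppp2r5a). Both were chosen on values that include these libraries.

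Over all tested transcripts, calls higher and lower in the IP were 33 and 539 in Rps27-FLAG and 84 and 229 in Rps27l-FLAG cells, against 1846 and 2308, and 1209 and 1919, with the replicate block. With Rps27-FLAG replicate 1 left out they were 623 and 1186, and 0 without replicate 2 or 3; in Rps27l-FLAG cells they were 0 without replicate 1 or 2. With the length trend removed and no block they were 9 and 18, and 6 and 2. Preference calls, 47 higher and 10 lower, were 11 and 0 with DESeq2, 18 and 10 with the length trend removed, 0 without the block and 137 and 14 without a limit on the fold change. Signs turned for values near 0 that passed in no setting: Ppp2cb in Rps27-FLAG cells (0.0015 with limma, 0.024 with DESeq2, 0.011 with TMM over all libraries, 0.0084 with the replicate block, and -0.0564 to 0.0645 with a clone left out, or -0.0537 to 0.0662 with the block), Ppp2r5d there (-0.0383 to 0.052, or -0.0395 to 0.056 with the block, lowest without replicate 2), and in Rps27l-FLAG cells Ppp2r5c (-0.007 and -0.009) and Ppp2r5d (0.011 and 0.012) with the length trend removed, without and with the block. Ppp2r1b in Rps27l-FLAG cells, which passed in 1 setting, ran from -0.0098 to 0.1044 with a clone left out, or -0.0081 to 0.107 with the block, lowest without replicate 1. The cause was not tested. Members had 182 to 3997 counts per library, and changes of lower-count members below their intervals were not detectable.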

Other observations

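The PP2A-like phosphatases PP4 and PP6, whose catalytic subunits share the Tiprl and Igbp1 chaperones with PP2A, were all 13 tested. None passed without a replicate term in IP over total (edgeR), where 5.67% of all tested transcripts passed in Rps27-FLAG and 3.1% in Rps27l-FLAG cells. With the term, 8 passed in Rps27-FLAG cells (3 higher, 5 lower in the IP) and 5 in Rps27l-FLAG cells (1 higher, 4 lower), where 18.3% of all tested transcripts were higher and 22.9% lower in the first line and 12% and 19% in the second. The catalytic subunits Ppp6c (log2 0.22 ± 0.0458) and Ppp4c (0.17 ± 0.0375) were higher in the IP of Rps27-FLAG cells, as Ppp2ca was, and did not pass in Rps27l-FLAG cells. The difference between the lines was tested as the preference and neither was called. The PP6 regulatory subunits Ppp6r3 (-0.28 ± 0.0316 and -0.21 ± 0.0309) and Ppp6r1 (-0.30 ± 0.0547 and -0.28 ± 0.0583) and the PP4 regulatory subunit Ppp4r3b (-0.21 ± 0.0488 and -0.21 ± 0.0504) were lower in both lines, while Ppp4r2 was higher in both (0.13 ± 0.038 and 0.11 ± 0.0397). Those lower had CDS of 2460 to 3228 nt in Rps27-FLAG cells and those higher 915 to 1251 nt.

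Of the listed PP2A genes that were not tested, Ppp2r2c, Ppp2r3a, Ppp2r3d and Strip2 had at most 38 counts in any library, and Ppp2r2b at most 1.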
